A study of Mus musculus with 14 samples.

Results

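ID and MIR elements, both families of short interspersed nuclear elements (SINEs), were followed in RNA from mouse testis. The members were every listed place that the deposited element tables class as a SINE of family ID or of family MIR, with repeated entries dropped. The table of the MVH immunoprecipitate (MVH IP) held 5147 members, 1114 ID and 4033 MIR places, of 94297 elements in all. The table of round spermatids held 3697 members, 1196 ID and 2501 MIR places, of 47338 elements. Over both tables there were 2146 ID and 5914 MIR places, together 8060 of 129578 elements. The choice used the name of the repeat, but both tables list places only from 5 FPKM upward, so a level decided which places were there to choose.

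ID elements are a rodent family of retroposons that spread from the gene of BC1, a small neuronal RNA made by RNA polymerase III. MIR elements (mammalian-wide interspersed repeats) descend from a tRNA-related SINE that was active in early mammals, and their copies are old, diverged and mostly cut short. Both families are non-autonomous and have been copied by proteins of LINE elements. In male germ cells, transposon RNA is a target of the piRNA pathway, many of whose proteins gather in the chromatoid body, a granule beside the nucleus of round spermatids in which the helicase MVH (encoded by Ddx4) is abundant.

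The MVH IP came from testes of C57BL/6 mice of at least 6 weeks. Dissociated tubule cells were fixed with formaldehyde and sonicated, and the twice-sonicated, filtered pellet was precipitated with an antibody against MVH, while the sample type in the labels names lysate as its source. It had 3 libraries. Round spermatids were sorted from testes of the same strain and age, with 2 libraries. The source name of 1 of them in the labels reads above 500 bp, and the part of that selection in the pooled values was not tested. A whole-testis lysate with 1 library of that strain and age was used here only for the places it lists and for the level of the Bc1 gene. For each of these groups the deposited tables give 1 value per element. In MVH IP and round spermatids it is in FPKM (fragments scaled to the length of the element and to the size of the library). With 1 value per group, no value had a standard deviation, a replicate check or a test, and sequencing depth is unknown. Levels of the control precipitates made with IgG or an acrosin antibody were not analysed here. In such bulk samples, fewer cells of a type and less RNA per cell cannot be told apart.

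The gene tables of both samples listed markers of round spermatids. Of 7 such genes, MVH IP listed 6, at 456 to 14304 FPKM (Tssk6 was not listed), and round spermatids listed 7, at 11.1 to 3459 FPKM. Markers of other testis cells were listed in MVH IP more often. The listed round spermatid markers themselves summed to 27710 FPKM in MVH IP and 7358 FPKM in round spermatids. The part of this difference in scale in markers missing from round spermatids at the floor of 5 FPKM was not tested. For Leydig cells MVH IP listed 5 of 5 markers, summing to 116 FPKM, and round spermatids listed none of the 5 at the floor of 5 FPKM. For Sertoli cells MVH IP listed 2 of 6, Wt1 and Clu, summing to 110 FPKM, without Sox9, Amh, Rhox5 and Gata4, and round spermatids listed none of the 6. Meiotic markers summed to 324 FPKM over 4 of 5 genes in MVH IP and to 28.3 FPKM over 3 of 5 in round spermatids. Of these, Sycp3 was listed only in round spermatids, and Hormad1 and Tex101 only in MVH IP. MVH IP also listed 2 of 5 spermatogonial markers, Gfra1 and Dmrt1, summing to 15.6 FPKM, while round spermatids listed none of the 5. The part of these cells in the element values was not tested.

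The RNA that gave rise to the ID family, Bc1, shows the features that both families share with tRNA genes, and its sequence is given for that reason. It was taken from the GENCODE transcript on GRCm38 chromosome 7, plus strand, and has 168 bases. Capitals mark an A box (positions 14 to 24 from the 5′ end) and a B box (positions 57 to 66), the internal promoter elements of RNA polymerase III, which do not overlap.
Bc1: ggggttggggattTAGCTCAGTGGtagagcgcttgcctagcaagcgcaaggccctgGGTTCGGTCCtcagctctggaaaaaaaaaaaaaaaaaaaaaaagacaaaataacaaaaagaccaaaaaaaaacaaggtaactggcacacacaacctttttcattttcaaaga
Searched on both strands, the A box motif was in 4.73% and the B box motif in 0.113% of 32851 RefSeq promoter windows. The Bc1 gene itself (mm9 chr7:100808783-100808949) was listed at 0 FPKM in both MVH IP and lysate in the joint gene table. Per the labels' protocols the libraries were cut from a gel at 350 to 500 bp, longer than this RNA of 168 bases. The 0 therefore does not show that the RNA was absent, and the part of that cut in it was not tested.

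Within MVH IP, ID places had higher listed levels than MIR places. The median was 61.0 FPKM for ID (quartiles 21.2 and 223), 29.4 FPKM for MIR (11.7 and 99.3) and 17.8 FPKM for all elements (8.66 and 55.1). The ID median was 2.07 times the MIR median. At 100 FPKM or more stood 436 ID places (39.1%) and 1003 MIR places (24.9%), beside 16.6% of all elements. For comparison, the medians of the other SINE families were 17.6 FPKM for Alu (B1), 14.1 for B2 and 20.2 for B4.

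Round spermatids had the same order at lower values. The median was 21.5 FPKM for ID (quartiles 10.8 and 39.8), 12.5 FPKM for MIR (7.41 and 26.2) and 12.0 FPKM for all elements (7.27 and 26.9), so the ID median was 1.73 times the MIR median. At 100 FPKM or more there were 87 ID places (7.27%), 159 MIR places (6.36%) and 8.49% of all elements. The upper ends of the families therefore lay below that of all elements here, although the ID median lay above it.

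**Figure D1:**
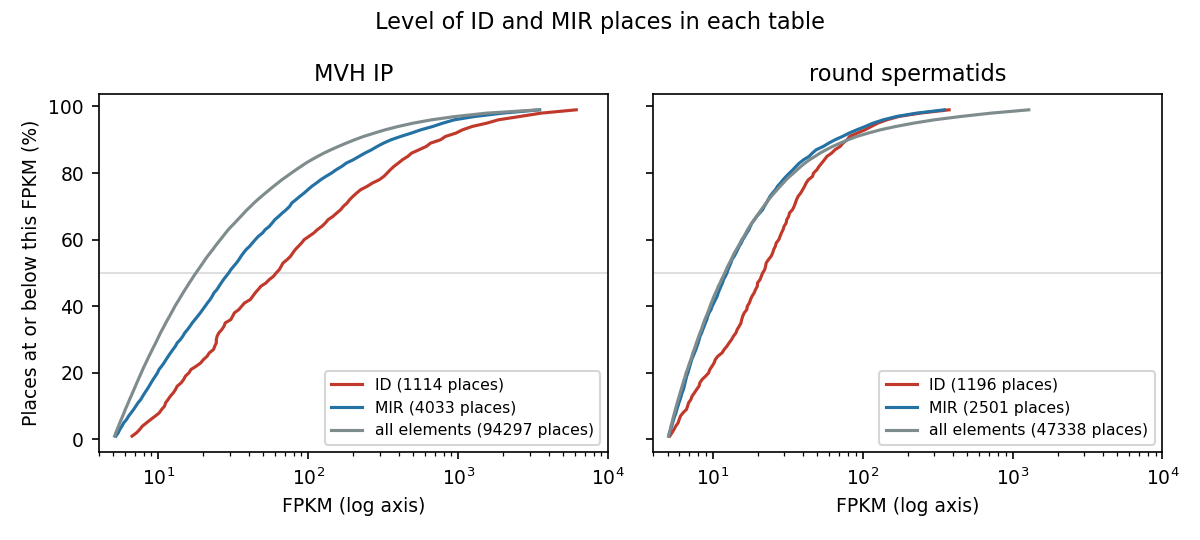
Percent of places (vertical axis) at or below each FPKM (horizontal, log axis) for ID, MIR and all elements in MVH IP (left) and round spermatids (right), from percentile 1 to 99. The horizontal line at 50% crosses ID at 61.0 and MIR at 29.4 FPKM in MVH IP, and ID at 21.5 and MIR at 12.5 FPKM in round spermatids.

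The subfamilies differed less than the families. Of the ID names, ID4_ (456 places) had the lowest median in MVH IP, 44.4 FPKM, and ID4 (450 places) the highest, 76.2 FPKM, with ID at 67.9 (105 places) and ID2 at 64.6 FPKM (103 places). In round spermatids the same names lay between 20.3 FPKM (ID2) and 25.8 FPKM (ID). Of the MIR names, MIRb (1294 places) had the lowest median in MVH IP, 23.2 FPKM, beside 29.4 for MIR, 34.3 for MIR3, 35.6 for MIRc and 36.7 for MIRm. MIRb was also lowest in round spermatids, at 11.02 FPKM, and MIRm highest, at 15.97 FPKM. In MVH IP the order of the MIR names was the reverse of the order of their median lengths. These were 132 bases for MIRb, 123 for MIR, 114 for MIR3, 111 for MIRc and 96 for MIRm. In round spermatids this held except between MIR (12.4 FPKM, 103 bases) and MIR3 (12.8 FPKM, 104 bases). ID4_ and ID4 both had a median length of 78 bases.

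Length separated the families and moved with the level. ID places had a median length of 79 bases in MVH IP and 77 bases in round spermatids, and MIR places 121 and 102 bases. Across places, levels tended to be lower in longer ones, with a Spearman correlation of FPKM with length across places of -0.17 for ID and -0.36 for MIR in MVH IP, and of -0.15 for ID and -0.44 for MIR in round spermatids. FPKM divides a fragment count by length, and the libraries were cut from a gel at 350 to 500 bp per the labels' protocols, longer than the median place of either family. Among places of 60 to 79 bases the ID median was no longer the higher one. It was 66.8 FPKM for 566 ID places and 78.3 FPKM for 438 MIR places in MVH IP, a ratio of 0.852, and 21.6 FPKM for 642 ID places and 23.5 FPKM for 376 MIR places in round spermatids, a ratio of 0.921. Under 60 bases the ratio was 0.448 in MVH IP (53 ID and 187 MIR places) and 1.04 in round spermatids (79 and 270 places). At 80 to 119 bases it was 1.07 in MVH IP (361 and 1352 places) and 1.40 in round spermatids (335 and 1076 places).

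Above 120 bases the families drew apart. In MVH IP the ID median was 37.0 FPKM at 80 to 119 bases, 127 FPKM at 120 to 179 and 64.7 FPKM at 180 or more, beside 34.7, 21.3 and 15.9 FPKM for MIR. In round spermatids it was 17.7, 15.99 and 22.6 FPKM, beside 12.6, 8.12 and 9.26 FPKM for MIR. Between 120 and 179 bases the ID median was 5.99 times the MIR median in MVH IP, but only 32 ID places stood against 1486 MIR places. At 180 bases or more the ratio was 4.08 in MVH IP (102 ID and 570 MIR places) and 2.44 in round spermatids (97 and 145 places). The longest ID place of the lysate table had 142 bases and the longest MIR place 261. In MVH IP 121 ID places (10.9%) and 76 MIR places (1.88%) were longer than that, up to 1858 and 7678 bases, and in round spermatids 127 (10.6%) and 56 (2.24%). Such a place can hold more than the element that names it.

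**Figure D2:**
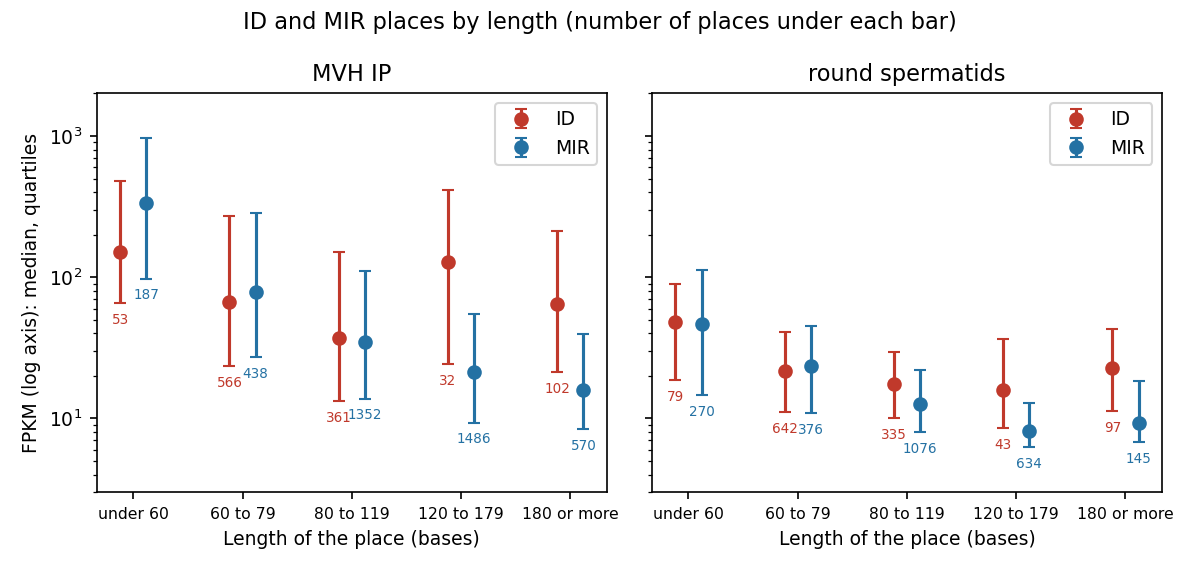
Median FPKM (points, log axis) with quartiles (bars) of ID and MIR places in 5 length classes in MVH IP (left) and round spermatids (right), with the number of places under each bar. At 60 to 79 bases the medians lay at 66.8 FPKM for ID and 78.3 FPKM for MIR in MVH IP, while at 180 bases or more ID stood 4.08 times higher.

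The lowest listed value also depended on length in MVH IP. It was 33.7 FPKM among all elements of 50 bases, where 7 places shared it, 10.1 FPKM at 73 bases (15 places), 5.15 FPKM at 90 bases (33 places) and 5.00 FPKM at 120 bases. In round spermatids it stayed between 5.01 and 5.13 FPKM at these lengths. Set against the lowest value of its own length, the families were close. Among places of 60 to 79 bases, 42.4% of ID and 41.8% of MIR places were at 10 times the lowest value or more in MVH IP, and 19.0% and 21.5% in round spermatids. At 100 times or more stood 47 ID places (8.30%) and 34 MIR places (7.76%) in MVH IP, and 4 of each family in round spermatids.

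A few places held much of each family's summed FPKM. The highest ID place held 31.0% of the ID sum in MVH IP and 37.9% of it in round spermatids, and the 10 highest held 51.6% and 57.0%. For MIR the highest place held 9.31% in MVH IP and 20.03% of the sum in round spermatids, and the 10 highest 25.2% and 32.2%. ID places made up 3.02% and MIR places 4.47% of the FPKM of all elements in MVH IP, beside 2.39% and 2.62% in round spermatids.

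The highest ID place in MVH IP was an ID4_ copy of 73 bases at mm9 chr6:50411094-50411167, at 200468 FPKM in MVH IP and 2198 FPKM in round spermatids, a 91.2-fold difference. It lay 4925 bases from Osbpl3, a lipid-binding protein gene, and was also listed in the lysate. The next 4 ID places of MVH IP were 31.0 to 310 times higher there than in round spermatids. These places were picked by their level in MVH IP, so high ratios are favoured among them. The tables were also scaled apart, with a median log2 ratio of (FPKM + 1) of 2.43 over all elements listed in both. An ID copy at chr15:102481595-102481660, 11638 bases from Atp5g2, a gene of the ATP synthase ring, had 24910 FPKM in MVH IP and 167 FPKM in round spermatids. An ID copy 13112 bases before Mbnl2, a splicing regulator, had 24343 and 507 FPKM, an ID copy 308 bases from Acer1, a ceramidase gene, had 18098 and 58.3 FPKM, and an ID4 copy at chr13:104452188-104452255 had 13268 and 427.5 FPKM. The ID2 copy at chr9:36535389-36535441, 1146 bases before the 5′ end of Chek1, a checkpoint kinase gene, had 12654 FPKM in MVH IP and was not listed in round spermatids.

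The highest ID places of round spermatids follow, and since they were picked by that level, low ratios of MVH IP to round spermatids are favoured among them. An ID4_ copy at chr14:57703535-57703624, 13814 bases from Gjb2 (connexin 26), had 12301 FPKM in MVH IP and 37208 FPKM in round spermatids. An ID4_ place at chrX:86583868-86584349 had 9619 FPKM in MVH IP and 9740 FPKM in round spermatids, and an ID2 copy at chr6:115008838-115008907 had 1066 FPKM in MVH IP and 2379 FPKM in round spermatids. These 3 places stayed at or below equality, whereas the place near Osbpl3, which is also among the 6 highest of round spermatids, was far above it. The remaining 2 were an ID4_ copy 5378 bases from Mars2 (3020 FPKM in MVH IP, 1168 in round spermatids) and an ID copy 4379 bases from 5730528L13Rik (970 FPKM in round spermatids, not listed in MVH IP).

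Among MIR places, a 44-base MIR copy at chr7:121823103-121823147, 39009 bases from Calcb, had 88954 FPKM in MVH IP and 228 FPKM in round spermatids. A 37-base MIR copy at chr4:69324336-69324373 was high in both, with 47797 FPKM in MVH IP and 3505 FPKM in round spermatids. The other 4 highest MIR places of MVH IP had 11662 to 22184 FPKM there and 74.0 to 213 FPKM in round spermatids, among them an MIRc copy 22964 bases before Trp53i11 that the lysate also listed and an MIR3 copy 10923 bases from Ccl20, a chemokine gene. In round spermatids the highest MIR place was a 46-base copy at chr2:172586651-172586697, 108491 bases from Bmp7, with 21575 FPKM, and MVH IP did not list it. Of the other 5 highest MIR places of round spermatids, 2 MIRm copies had 11283 and 2651 FPKM in MVH IP against 3446 and 1103 FPKM in round spermatids, and 2 more were not listed in MVH IP, an MIRc copy 17972 bases from Zfp521 (1077 FPKM in round spermatids) and an MIR copy 72538 bases after 1700110M21Rik (923 FPKM). The remaining one was the copy at chr4:69324336-69324373. The 3 MIR places given here with coordinates had 37 to 46 bases, in the length class with the highest MIR median in both samples.

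The comparison of MVH IP with round spermatids asks how RNA precipitated with MVH relates to RNA of the cells that hold the chromatoid body. Only places listed in both tables carry a ratio. The tables were scaled apart, and the log2 ratio of (FPKM + 1) over all 12057 elements listed in both had a median of 2.43, with 71.7% of them at 2-fold or more higher in MVH IP and 7.32% at 2-fold or more lower. Of 164 ID places, 132 were higher (80.5%) and 6 lower (3.66%) in MVH IP, with a median log2 ratio of 3.37 (quartiles 1.72 and 4.58). Of 620 MIR places, 500 were higher (80.6%) and 17 lower (2.74%), and the median was 3.18 (quartiles 1.46 and 4.90). Both shares lay within 1 percentage point of each other between the families among these places listed in both tables. Over every member, a place missing from 1 table was set to 5 FPKM there. Then 45.4% of ID and 51.0% of MIR places were higher and 35.8% and 17.7% lower. The medians were 0.42 and 1.06, beside 46.0% higher, 14.4% lower and a median of 0.82 for all elements. This fill lies below the lowest listed value of short places in MVH IP, 10.1 FPKM at 73 bases. Places of round spermatids alone had median lengths of 77 bases for ID and 100 for MIR. The part of the fill in the lower shares was not tested.

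Relative to the median of all elements, the same places split more evenly. Then 33.5% of all elements were 2-fold or more higher and 34.2% lower in MVH IP. Of the ID places 78 were higher (47.6%) and 38 lower (23.2%), and their median was 0.94. Of the MIR places 285 were higher (46.0%) and 153 lower (24.7%), and theirs was 0.75. Alu, B2 and B4 places had medians of 0.15, -0.04 and 0.10 on this scale. ID and MIR places listed in both tables were shorter than all such elements, with median lengths of 78 and 106 bases against 127, and the part of length in this difference was not tested.

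By name, the median log2 ratio without that shift was highest for MIR3 (3.97, 54 places) and the ID name itself (3.71, 21 places) and lowest for ID4_ (2.67, 58 places) and MIRm (2.69, 45 places). Of ID4 places 59 of 66 were 2-fold or more higher in MVH IP, and of ID4_ places 41 of 58.

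**Figure D3:**
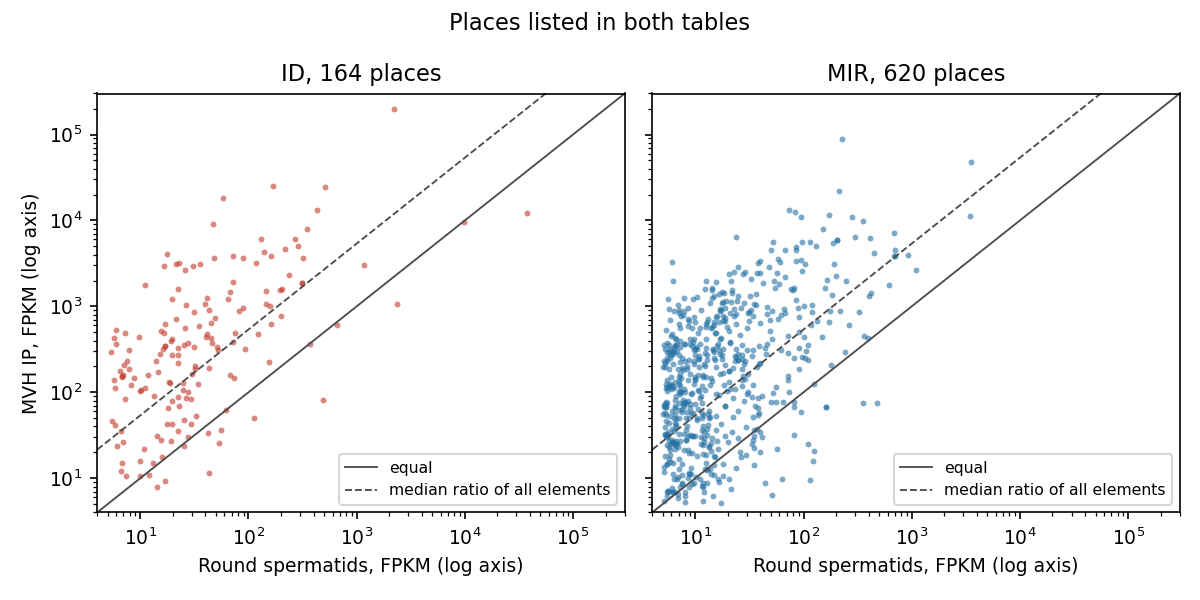
FPKM in MVH IP (vertical, log axis) against FPKM in round spermatids (horizontal, log axis) for the 164 ID places (left) and 620 MIR places (right) listed in both tables. The solid line marks equal values and the dashed line the median log2 ratio of all elements, 2.43, and most points of both families lie above the solid line.

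The largest log2 ratio of an ID place was 8.25, at chr17:57121857-57122160 near Acer1. Others among the 5 highest were an ID4 copy 59331 bases from Ppp2r5c (4121 FPKM in MVH IP, 17.7 in round spermatids), an ID4 place 31776 bases from Elf3 (2914 and 16.7 FPKM) and the copy near Atp5g2. The lowest was -2.56, for an ID4 place at chr5:135323696-135323884 with 82.3 FPKM in MVH IP and 491 FPKM in round spermatids. An ID4 copy at chr17:76446375-76446449 followed at -1.82, with 11.4 FPKM in MVH IP and 42.9 FPKM in round spermatids, then the places near Gjb2 and 1500001M20Rik and an ID4_ copy 32398 bases from Mfsd1 (50.7 and 114 FPKM).

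For MIR the largest log2 ratio was 8.86, at chr13:98025188-98025247, 2193 bases from Enc1, with 3275 FPKM in MVH IP and 6.04 FPKM in round spermatids. The place near Calcb came next at 8.60, then an MIRb copy 100028 bases from Mbl2 (1985 and 6.17 FPKM), an MIR copy 141448 bases from Tcfap2c (6392 and 24.0 FPKM) and an MIRb copy 102067 bases from Wscd1 (1220 and 5.63 FPKM). Several of these stood close to the floor of 5 FPKM in round spermatids. At the other end, an MIR3 copy at chr16:13468376-13468473, 14357 bases from the microRNA gene Mir365-1, had 9.56 FPKM in MVH IP and 114 FPKM in round spermatids, a log2 ratio of -3.44. The next 4 were an MIR3 and 3 MIRb copies at -2.85 to -2.57, nearest to Gm12070, Mir1937b-4, Mgat5b and Hhex.

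Most members were listed in 1 table only. The shared ID places were 14.7% of the ID places of MVH IP and 13.7% of those of round spermatids, and the shared MIR places 15.4% and 24.8%. For all elements these shares were 12.8% and 25.5%, so the ID share of round spermatids stood below both others. Shared places had higher levels in MVH IP, as over all elements. The median was 334 FPKM for shared ID places and 46.3 FPKM for ID places of MVH IP alone. It was 171 and 24.4 FPKM for MIR, and 132 and 15.2 FPKM for all elements. In round spermatids the corresponding medians were 26.3 and 20.7 FPKM for ID, 13.4 and 12.1 FPKM for MIR, and 16.5 and 11.1 FPKM for all elements. ID places made up 1.18% of the elements of MVH IP and 2.53% of those of round spermatids, and MIR places 4.28% and 5.28%. There were 0.276 ID places per MIR place in MVH IP, 0.478 in round spermatids and 1.06 in the lysate table (412 ID and 387 MIR places). Each list depends on its own floor, so these shares describe the lists and not amounts of RNA.

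Members of MVH IP and round spermatids lay almost wholly outside genes. Gene spans were those of 21905 genes with a symbol in the joint table, on mm9. In MVH IP 20 ID places (1.80%) and 58 MIR places (1.44%) lay inside one, beside 1.23% of all elements. In round spermatids 13 ID places (1.09%) and 56 MIR places (2.24%) did, beside 1.72% of all elements. The lysate table listed another kind of place, with 336 of 412 ID places (81.6%) and 260 of 387 MIR places (67.2%) inside genes, beside 60.6% of all its elements. Of the lysate table, 7 ID (1.70%) and 24 MIR places (6.20%) were also listed in MVH IP, beside 5.31% of all its elements, and 7 (1.70%) and 35 (9.04%) in round spermatids, beside 4.80%. None of the ID or MIR places of MVH IP or round spermatids overlapped a piRNA cluster of the joint table, where all elements gave 0 and 1 overlaps, whereas 6 ID (1.46%) and 24 MIR places (6.20%) of the lysate did, beside 2.35% of all its elements. The tables thus differ in which places they list before any level is compared, and no source used here says how the places were selected.

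The few members inside genes can be set beside the gene that holds them. Of 10 ID places in MVH IP inside 1 gene with a value above 0 in the joint table, 10 were at 2-fold or more above the gene, beside 62.8% of 662 such elements of all kinds, and the median log2 ratio was 4.31. For 45 MIR places the median was 2.69, with 31 at 2-fold or more above the gene, and for all elements it was 2.12. Elements are listed only from 5 FPKM, and the gene was under 1 FPKM for 4 of the 10 ID and 11 of the 45 MIR places, so the floor alone set those calls. The MIR direction rests on the table, since with gene values of the separate MVH IP gene table, which lists only genes from 5 FPKM, 13 MIR places had a median of -0.75. Chrm3, a muscarinic receptor gene, held the most ID places, 3, at 7.90 and 8.49 FPKM in MVH IP and 12.9 FPKM in round spermatids, with the gene at 0.916 FPKM in MVH IP. Dpf3, a gene of a chromatin remodelling complex, held the most MIR places, 10. Its 5 places in MVH IP had 57.8 to 496 FPKM, around the gene's 81.6 FPKM in the joint table, and its 6 in round spermatids had 5.77 to 151 FPKM, with the gene at 14.01 FPKM.

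Outside genes, ID places lay nearer to a gene than MIR places. The median distance to the nearest gene span was 38777 bases for ID, 53218 for MIR and 47900 for all elements in MVH IP, and 22282, 37446 and 33009 bases in round spermatids. SINEs of all families lay nearer than ID places, at 29596.5 bases in MVH IP and 20298 in round spermatids. Within 5 kb of a gene lay 186 ID places (17.0%) and 496 MIR places (12.5%) of MVH IP, and 260 ID (21.98%) and 429 MIR places (17.5%) of round spermatids, beside 13.7% and 19.2% of all elements. Of all SINEs, 18.6% in MVH IP and 25.4% in round spermatids did.

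For genes with a strand in the deposited gene tables, which list genes from 5 FPKM, the side of the place could be read. Within 5 kb of a gene in MVH IP this held for 80 of 186 ID and 189 of 496 MIR places, beside 5596 of 12801 elements. In round spermatids it held for 135 of 260 ID and 223 of 429 MIR places, and the other places were left out. Among the places with a side in MVH IP, those before the 5′ end of a gene had higher levels than those after a 3′ end. Within 5 kb, 41 ID places before a gene had a median of 188 FPKM (quartiles 24.1 and 744) and 39 after a gene 42.9 FPKM (18.0 and 127). For MIR, 111 places before a gene had a median of 106 FPKM (25.3 and 339) and 78 after a gene 28.9 FPKM (10.4 and 138). The quartiles overlapped in both families. Over all elements the medians were 23.1 and 20.5 FPKM, a ratio of 1.13, beside 4.39 for ID and 3.65 for MIR. Median lengths before and after a gene were 78 and 79 bases for ID and 121 and 114 bases for MIR.

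In round spermatids the sides differed less, with 32.1 FPKM before and 26.5 FPKM after a gene for ID (84 and 51 places), 16.3 and 13.0 FPKM for MIR (142 and 81 places) and 12.8 and 12.0 FPKM for all elements. The ratio in MVH IP depended on the window. It was 11.6 within 1 kb for ID, from 6 places before and 15 after a gene, and 2.38 within 20 kb, and for MIR 4.02 and 1.45. Over all elements it was 1.58 within 1 kb and 1.04 within 20 kb, and over all SINEs 1.78 and 1.08. The higher level before a gene was found by looking through the values. Among the highest ID places before a gene in MVH IP were the one near Chek1, a copy 1007 bases before 2210018M11Rik (6044 FPKM in MVH IP, 270 in round spermatids) and a copy 2970 bases before Ugcg, the gene of glucosylceramide synthase (2674 FPKM in MVH IP, not listed in round spermatids). For MIR they lay before Chst1 (3515 FPKM), Gtpbp2 (2056 FPKM), Mast4 (1980 FPKM) and Klf9 (1167 FPKM), a transcription factor gene. After a gene, the highest ID place had 1851 FPKM, 72 bases past Pcolce, and the highest MIR place 4996 FPKM, 27 bases past Scmh1, a Polycomb gene.

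**Figure D4:**
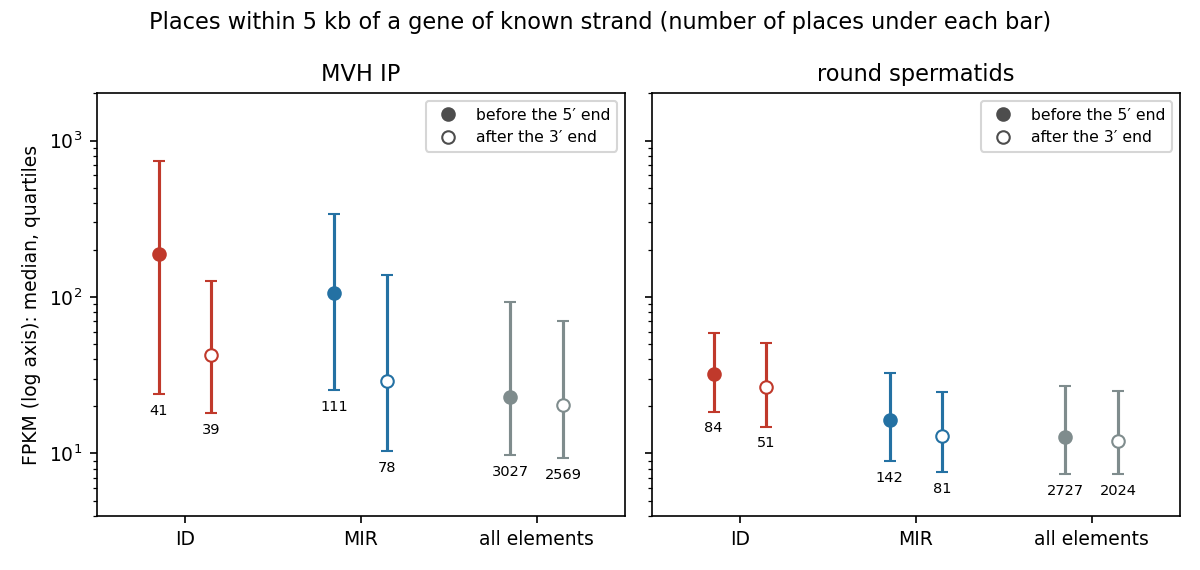
Median FPKM (points, log axis) with quartiles (bars) of places within 5 kb before the 5′ end (filled) or after the 3′ end (open) of a gene of known strand, for ID, MIR and all elements in MVH IP (left) and round spermatids (right), with the number of places under each bar. In MVH IP the medians were 188 and 42.9 FPKM for ID and 106 and 28.9 FPKM for MIR.

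Many values were exactly repeated. In MVH IP 494 ID places (44.3%) and 1439 MIR places (35.7%) had the same length and exactly the same FPKM as another listed element, beside 25.9% of all elements, and in round spermatids 755 (63.1%) and 1429 (57.1%), beside 37.6%. Equal small fragment counts at 1 length and reads shared by copies cannot be told apart in such ties. One group of such ties lay on chromosome 14, which held 7.81% of the ID places of MVH IP, beside 5.57% of all its elements, and 4.43% of the ID places of round spermatids. Of its 87 ID places in MVH IP, 33 lay between positions 3002179 and 7560976, 20 named ID4_ and 13 named ID4. All 20 ID4_ places had 90 bases and exactly 24.4 FPKM. The 13 ID4 places had 80 bases and 5 values, 6 of them at 322 FPKM, 1 at 313, 3 at 181, 1 at 150 and 2 at 9.38 FPKM. These were 34.3, 33.3, 19.3 and 16.0 times the lowest, which are whole steps of that value divided by 3.

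Some of these places came in close pairs. In 7 cases an ID4_ place was followed by an ID4 place 2443 to 2588 bases further on, and in 5 cases the order was turned round, 2403 to 2552 bases apart. The nearest genes of the 33 places were 7, among them Gm2897, Gm3020, Gm10406, Gm1973, D830030K20Rik and 4930555G01Rik, and the places lay 6988 to 820393 bases from them. Of all 232 elements listed there in MVH IP, 57.3% had the same name, length and FPKM as another element of the stretch, beside 5.70% of elements on other chromosomes. Round spermatids listed 1 of the 33 ID places, at 52.1 FPKM, where MVH IP had 313 FPKM. Without the 33 places, chromosome 14 held 4.995% of the ID places of MVH IP. The stretch was picked after its values were seen.

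**Figure D5:**
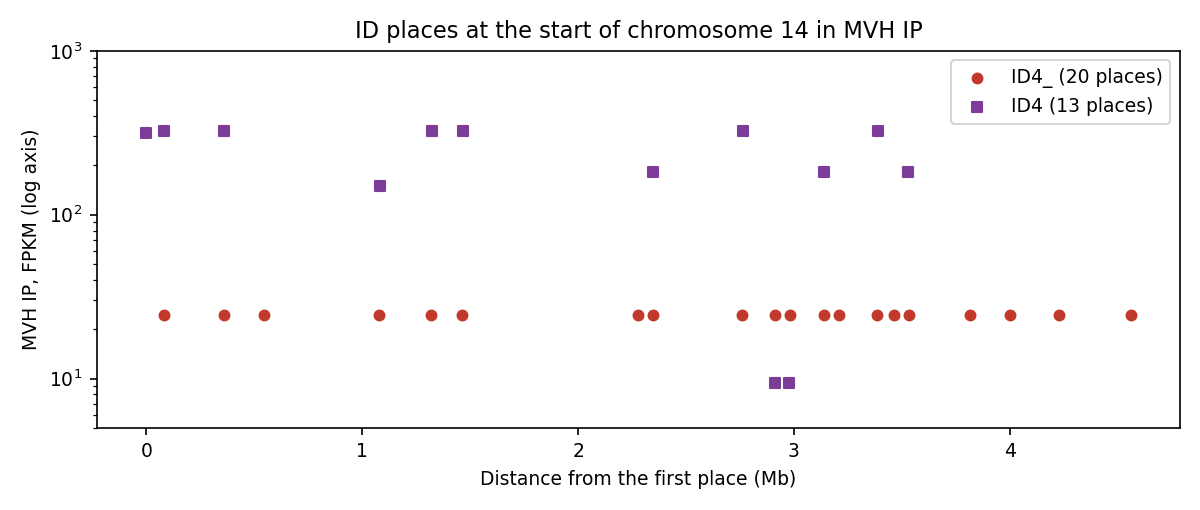
FPKM in MVH IP (vertical, log axis) of the 33 ID places at the start of chromosome 14 against their distance from the first of them in Mb (horizontal). The 20 ID4_ places form a single level at 24.4 FPKM, and the 13 ID4 places fall on 5 levels between 9.38 and 322 FPKM.

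Other chromosomes departed from the share of all elements as well. The X chromosome held 6.91% of the ID places, 4.69% of the MIR places and 4.47% of all elements of MVH IP, and 4.43%, 3.24% and 3.49% of those of round spermatids. Chromosome 4 held 8.08% of the MIR places of MVH IP, beside 5.19% of all elements. The densest megabase of MIR places in MVH IP, on chromosome 5 between 119 and 120 Mb near Med13l and Tbx3, had 15 places at 8.19 to 401 FPKM. In round spermatids it was the one between 25 and 26 Mb of chromosome 14, near Rps24 and 4931406H21Rik, with 14 places at 6.07 to 283 FPKM.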

How the data were processed

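Per the submitters' processing notes, TopHat and Cuffdiff were used with genome build mm9. No source used here gives tool versions, filters on reads or depth. Element and gene values are FPKM per the file headers, deposited by the authors as 1 pooled value per group, and the MVH IP and round spermatid tables list values from 5 FPKM upward. The lysate element values, though named FPKM in the header, were kept as a score, as deposited. They start at 21.0, so only the places of these elements were used. The lysate table starts the same places 1 base later (1216 places), and coordinates are printed as the MVH IP and round spermatid tables give them.

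Entries were read with pandas 2.3.3, and the highest value of a repeated place was kept (4 entries dropped in round spermatids, 0 in MVH IP). Gene spans and gene levels come from the joint table's lysate and MVH IP entries. Ratios are on the log2(FPKM + 1) scale, which understates low places, and were called at 2-fold. The design allowed for a limma test on values per library, but pooled values left description only. Functions were tested on simulated data. Named places, for each family, are the 6 highest in each sample, the 5 highest and 5 lowest ratios, and the gene holding most places. Members and lists were chosen with earlier results of these data known. The sequence of Bc1 is from GENCODE M21, and promoter windows are from RefSeq on GRCm38. Element sequences on mm9, strand and exon or intron position were not used here. Of the places named by the rule, 1 is not reported here.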

Additional observations from a re-analysis of the deposited data

How the results depend on the processing

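Of 87 recomputed values over 21 results, 55 stayed within 1.5 times of the reported one, 29 moved further and 3 turned round. Among places of at least 100 bases, MVH IP kept 164 ID places and round spermatids 168 ID and 1316 MIR places, and at a floor of 10 FPKM round spermatids kept 1491 MIR places. The ID over MIR ratio of medians turned to 0.852 in MVH IP and 0.921 in round spermatids at 60 to 79 bases and was 1.07 in MVH IP at 80 to 119 bases, length classes chosen after seeing the data. It was 1.60 and 1.27 at a floor of 10 FPKM, and 2.20 and 1.66 with equal values of a name and length counted once.

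For MVH IP against round spermatids, centring on the median of all elements gave median log2 ratios of 0.94 (ID) and 0.75 (MIR), with 47.6% and 46.0% higher and 23.2% and 24.7% lower. With unlisted places set to the 5 FPKM floor, the medians were 0.42 and 1.06, with 45.4% and 51.0% higher and 35.8% and 17.7% lower, beside 46.0% and 14.4% of all elements. For short places in MVH IP the lowest listed value lay above this fill. At 4-fold, 0.610% of ID and 1.45% of MIR places were lower, and 7.14% of ID places of at least 100 bases were lower at 2-fold. Counting assembled transcripts without a symbol put 3.23% of ID and 3.03% of MIR places inside genes in MVH IP, and 4.77% and 7.32% in round spermatids. The median log2 ratio of element over gene in MVH IP was 5.89 for ID (2 places) and -0.75 for MIR with the separate gene table. It was 5.39 for ID with a pseudocount of 0.1. The ratio of medians before over after a gene was 11.6 (1 kb) and 2.38 (20 kb) for ID and 1.45 (20 kb) for MIR, windows added after seeing the data. The cause of these changes was not tested.

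No paired analysis was possible because the deposited values are pooled over libraries, and for the same reason no replicate was left out. Depth is unknown, and the floor of 5 FPKM limits which places are listed.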
